A study of Ricinus communis with 6 samples.

Results

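Libraries D2 and L1 are 2 of the 6 RNA-seq libraries made from the main stem of the castor bean (Ricinus communis), and they are compared here with the other 4, D1, D3, L2 and L3. D2 comes from the dwarf, short-stalk variety 071113, as do D1 and D3, and L1 comes from the high-stalk variety Zhuansihao, as do L2 and L3. All 6 were made from the 5th internode of field-grown plants with 8 to 10 leaves, the period of fast stem growth, and the labels give about 6 dissected plants without saying how they were divided among the libraries, which the methods call biological replicates. Poly(A) mRNA was sequenced, and each gene has 1 FPKM value (a fragment count corrected for transcript length and sequencing depth) in each library. No treatment separates the 2 library sets. They were put together after the fact, because D2 correlated with L1 (Pearson r = 0.958 across genes) better than with D1 (0.792) or D3 (0.808). L1 also correlated with D2 better than with L2 (0.932) or L3 (0.927), but by far less. Every gene value entered that choice, so what follows describes the split, and no p-value is given. The study itself left D2 out of its gene comparison and replaced the hormone values of L1 as an outlier.

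An internode lengthens through cell division followed by cell expansion, and it then stiffens as xylem and fibre cells lay down lignified secondary walls and some of them die. Auxin promotes the first phase, in which expansins loosen the wall, and dividing cells express checkpoint, replication and cyclin genes. Phloem in the same tissue loads and carries sucrose. In a bulk library, fewer cells of a type cannot be told apart from less RNA per cell.

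Of 18875 rows in the table, 16236 had at least 1 FPKM in at least 2 libraries and were analysed as log2(FPKM + 1). For each gene, D2 was set against the mean of D1 and D3, and L1 against the mean of L2 and L3. The average of both differences equals the D2 and L1 effect in a linear fit with variety as a covariate, and its standard error (SE) rests on 3 residual degrees of freedom. A gene was counted as high when D2 lay above D1 and D3, L1 lay above L2 and L3, and both differences were at least 1. The mirror image defined low.

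D2 and L1 differed from the other libraries of their own varieties in a similar direction over much of the transcriptome. Of the 16236 genes, 795 (4.9%) were high in D2 and L1 and 233 (1.44%) were low. In 777 of the high genes and 207 of the low genes, both D2 and L1 lay beyond each of the other 4 libraries, a pattern that 26.8% of all genes had above and 16.4% below, whatever the size. Without a limit of size, D2 and L1 were above both other libraries of their variety in 5263 genes (32.4%) and below them in 3634 (22.4%). Taken alone, D2 was above D1 and D3 by at least 1 in 2689 genes (16.6%) and below them in 1527 (9.41%). L1 taken alone was above L2 and L3 in 903 genes (5.56%) and below them in 513 (3.16%). These single-variety counts are also what remains when L1 or D2 is left out. The limit of 1 cut through a continuous distribution, with 122 high genes whose smaller difference was between 1 and 1.1 and 178 genes just under it, between 0.9 and 1. For low genes the same counts were 54 inside and 66 outside.

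The D2 difference and the L1 difference share no library, and across the 16236 genes they correlated at a Pearson r of 0.63 (Spearman 0.64) and had the same sign in 74.4% of genes. Genes are not independent replicates, and these correlations follow from those that chose the sets. D2 departed further than L1, with an SD across genes of 1.12 against 0.62 on the log2 scale, and in 93.1% of the high genes its difference was the larger one. The median difference of the high genes was 2.59 in D2 and 1.42 in L1, and that of the low genes was -1.82 in D2 and -1.37 in L1. Over all genes both medians were 0.04.

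**Figure D1:**
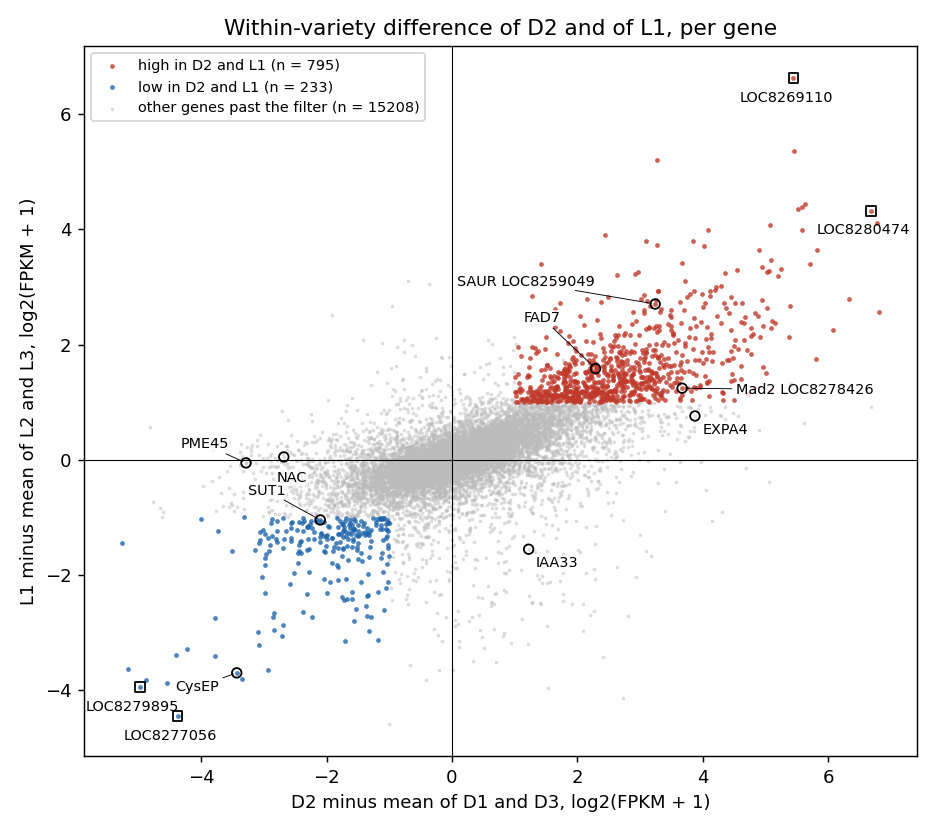
Each point is a gene past the filter, with D2 minus the mean of D1 and D3 on the x axis and L1 minus the mean of L2 and L3 on the y axis, both on the log2(FPKM + 1) scale. The 795 high genes (red) and 233 low genes (blue) lie along a common diagonal that is flatter than equality, while PME45 and NAC are low in D2 only and IAA33 is high in D2 and low in L1.

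The high genes made up 7.97% of the summed FPKM in D2 and 5.95% in L1, against 0.920% in D1, 1.15% in D3, 1.52% in L2 and 1.99% in L3. The low genes held 0.486% in D2 and 0.606% in L1, against 1.73% to 2.25% in the other 4. High genes were mostly of low or middle abundance. They were 8.42% of genes with a mean of 2 to 10 FPKM over the 6 libraries and 2.50% of those with at least 250 FPKM, where 2.92% were low. L2 and L3 lay above D1 and D3 in 82.0% of the high genes and 39.9% of the low genes, against 55.4% of all genes. The median of D2 minus L1 was only 0.35 in the high genes and -0.19 in the low genes. These shares therefore largely restate the larger difference of D2. The median high gene had 20.7 FPKM in D2, 14.4 in L1, 3.41 in L2, 4.54 in L3, 1.85 in D1 and 1.97 in D3.

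Library properties moved with the sets to a small extent. The summed FPKM lay between 585381 in L1 and 600050 in D2, with the other 4 inside that range. D2 and L1 had the fewest rows listed at 0 (718 and 770, against 827 to 1217) and the smallest share of the sum in the 100 most abundant rows (12.6% and 13.2%, against 14.1% to 15.6%). FPKM holds no read counts, but repeated ratios of low values gave a depth relative to D1 of 1.05 in D2 and 1.07 in L1, against 1.08 in D3, 0.869 in L2 and 0.938 in L3. The part of these properties in the split was not tested. The lists of photosynthesis and seed genes found no member in the sources that name genes, and the list of secondary wall genes caught 1 gene that is no wall gene, the acyl-CoA synthetase LACS4, so the cell make-up of the libraries was not checked.

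The variety labels were examined with genes that are nearly off in one variety. In the libraries as labelled, 2 genes were under 0.1 FPKM in D1, D2 and D3 and at least 2 FPKM in L1, L2 and L3, and none had the opposite pattern. The same limits set D2 and L1 apart from the other 4 in 7 genes, of which 6 were on and 1 was off in D2 and L1. Both counts are out of 18875 rows. The sets were chosen from these same values, which favours such genes, so the count of 7 is no check of the labels. When only D1, D3, L2 and L3 were used to pick genes, 6 were off in D1 and D3 and on in L2 and L3. In these 6, D2 was off in 2 and on in 3, and L1 was on in 5. A further 2 genes were off in L2 and L3 and on in D1 and D3, and L1 was off in both, while D2 was between the limits in both.

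Genes could be named from 2 sources, the synonyms of the RefSeq castor table and the gene IDs in the paper. Together they name 99 genes with a single row in the table, of which 85 passed the filter. Of these 85, 9 were high (10.6%) and 3 were low (3.53%), beside 4.9% and 1.44% of all genes. The study picked its genes on these same libraries, with D2 left out. Most were picked for a log2 difference of at least 2 between D1 and D3 and the Zhuansihao libraries. The variety difference of D1 and D3 over L2 and L3 in these genes partly follows from that choice. So does the side on which D2 stands to D1 and D3. L1 was among those Zhuansihao libraries, so a high L1 was favoured in genes that the study found lower in the dwarf. The shares of high genes among the named genes, and in the cell cycle and auxin lists below, carry that choice.

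Genes of the cell cycle stood higher in D2 and L1. All 8 such genes that the paper names passed the filter. Of these, 4 met the rule for high (50%, beside 4.9% of all genes) and 0 for low (beside 1.44%). Their median difference was 1.52, beside 0.03 for all genes. The study's choice of genes, in which L1 took part, weighs on this share. Cyclin-A, the cell division control protein LOC8283237 and Rad21 passed the filter only through D2 and L1. The filter thus favoured a high standing of these genes in D2 and L1. Mad2 holds back chromosome separation until the spindle is attached. Mad2 LOC8278426 had 13.3 FPKM in D2, against 0.265 in D1 and a listing at 0 in D3, and 9.0 in L1, against 2.99 in L2 and 3.47 in L3. Its D2 difference was 3.67 and its L1 difference 1.24. The other Mad2 gene, LOC8272625, had 23.7 FPKM in D2 against 3.85 in D1 and 3.20 in D3, and 22.7 in L1 against 5.76 in L2 and 7.09 in L3. Here D2 and L1 were nearly level, and all of the other 4 were lower (mean difference 2.07, SE 0.25).

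Cyclin-A (LOC8288529), which drives kinases of S phase and mitosis, had 4.29 FPKM in D2 against a listing at 0 in D1 and 0.211 in D3. In L1 it had 4.28 FPKM against 0.685 in L2 and 0.605 in L3, again a matching level in D2 and L1 (mean difference 1.97, SE 0.20). The cell division control protein LOC8283237 had 1.84 FPKM in D2 against 0.0308 in D1 and 0.0290 in D3, and 3.07 in L1 against 0.331 in L2 and 0.651 in L3. Its difference was 1.46 in each variety on the log2(FPKM + 1) scale, but the pseudocount weighs on values this low. The plain ratio was 61.6 in D2 and 6.25 in L1, and with a pseudocount of 0.1 the mean difference was 3.19. Mad2 LOC8278426, cyclin-A and this gene have low means and drop out under a filter of 5 FPKM.

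The other 4 cell cycle genes were also above both other libraries of the variety in D2 and in L1, but the L1 difference was under 1. Whatever the size, 32.4% of all genes stood above in this way. Rad21 (LOC8261128), a cohesin subunit that keeps replicated chromosomes paired, had 1.44 FPKM in D2 against 0.102 in D1 and 0.127 in D3, and 1.66 in L1 against 0.807 in L2 and 0.357 in L3. The origin recognition complex marks the starting points of DNA replication. Of its 3 subunits, LOC8274440 had the largest mean difference (1.58, SE 0.43), with 6.59 FPKM in D2 against 0.456 in D1 and 0.639 in D3, and 4.62 in L1 against 1.88 in L2 and 2.34 in L3. For the subunits LOC8260621 and LOC8279589 the D2 difference was 1.64 and 1.84, and the L1 difference 0.70 and 0.40.

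Auxin genes were mixed, with some far higher in D2 and L1. The file holds 10 of the 11 IDs of auxin transport and response genes in the paper, and 9 passed the filter. Of these, 3 were high (33.3%, beside 4.9% of all genes) and 0 were low, both differences were positive in 5, and the median difference was 0.98. As for the cell cycle genes, the study's choice of genes, in which L1 took part, weighs on this share. The small auxin-up RNA genes (SAUR) are switched on early by auxin and promote cell expansion. SAUR LOC8259049 had the largest positive mean difference of the named genes (2.97, SE 0.19). It had 30.8 FPKM in D2 against 2.20 in D1 and 2.53 in D3, and 27.0 in L1 against 2.89 in L2 and 3.74 in L3. The 4 other libraries were thus within 2.20 to 3.74 FPKM in both varieties, and D2 and L1 stood together far above them. SAU50 (LOC107260773), of the same family, had 8.07 FPKM in D2 against 1.21 in D1 and 1.49 in D3, and 14.5 in L1 against 5.40 in L2 and 6.42 in L3.

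AUX22 (LOC8271341), an Aux/IAA repressor that auxin itself induces, had 34.7 FPKM in D2 against 2.89 in D1 and 4.05 in D3, and 31.3 in L1 against 9.40 in L2 and 22.1 in L3. L3 came close to L1, and without L2 the gene no longer met the rule (mean difference 1.93, against 2.04 with L2). The auxin efflux carrier component 3 (LOC8258189), which exports auxin from cells, was above both other libraries of the variety in D2 (difference 1.46) and L1 (0.50). An ABC transporter of the G family, LOC8277074, had 10.9 FPKM in D2 against 0.454 in D1 and 1.02 in D3, and 6.87 in L1 against 2.13 in L2 and 4.44 in L3. The second one, LOC8282982, stayed under 1 FPKM in every library.

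In 3 auxin genes D2 and L1 stood on opposite sides of their varieties. IAA33 (LOC8289729), an atypical member of the Aux/IAA family, had 2.45 FPKM in D2 against 0.349 in D1 and 0.617 in D3, but 1.99 in L1 against 7.45 in L2 and 8.12 in L3. SAUR LOC8260421 had 1.53 FPKM in D2 against 0.418 in D1 and 0.529 in D3, but 2.90 in L1 against 4.93 in L2 and 6.29 in L3. In IAA33 and this SAUR gene D2 and L1 lay between the other dwarf and the other high-stalk libraries. The auxin response factor LOC8274635 was lower in D2 (20.1 FPKM, against 46.4 in D1 and 41.1 in D3), while L1 at 16.6 FPKM lay between L2 at 11.1 and L3 at 21.2. The other response factor, LOC8259066, was the third gene on opposite sides, with small differences of -0.12 in D2 and 0.46 in L1. Over all genes, 56 were higher in D2 and lower in L1 by at least 1 with no overlap (0.345%), and 8 the other way round (0.0493%).

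All 3 expansins were higher in D2, and less so in L1. EXPA4 (LOC8282200) had 181 FPKM in D2 against 25.4 in D1 and 4.80 in D3, and 106 in L1 against 64.5 in L2 and 59.7 in L3. EXLA2 (LOC8278145) had 316 FPKM in D2 against 47.2 in D1 and 48.2 in D3, and 169 in L1 against 54.3 in L2 and 158 in L3, so that L1 and L3 were near each other. EXPB3 (LOC8262087) had 52.9 FPKM in D2 against 13.9 in D1 and 5.51 in D3, and 66.9 in L1 against 33.9 in L2 and 53.8 in L3. The L1 differences of 0.64 to 0.86 kept all 3 out of the high genes, with D2 differences of 2.45 to 3.88.

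**Figure D2:**
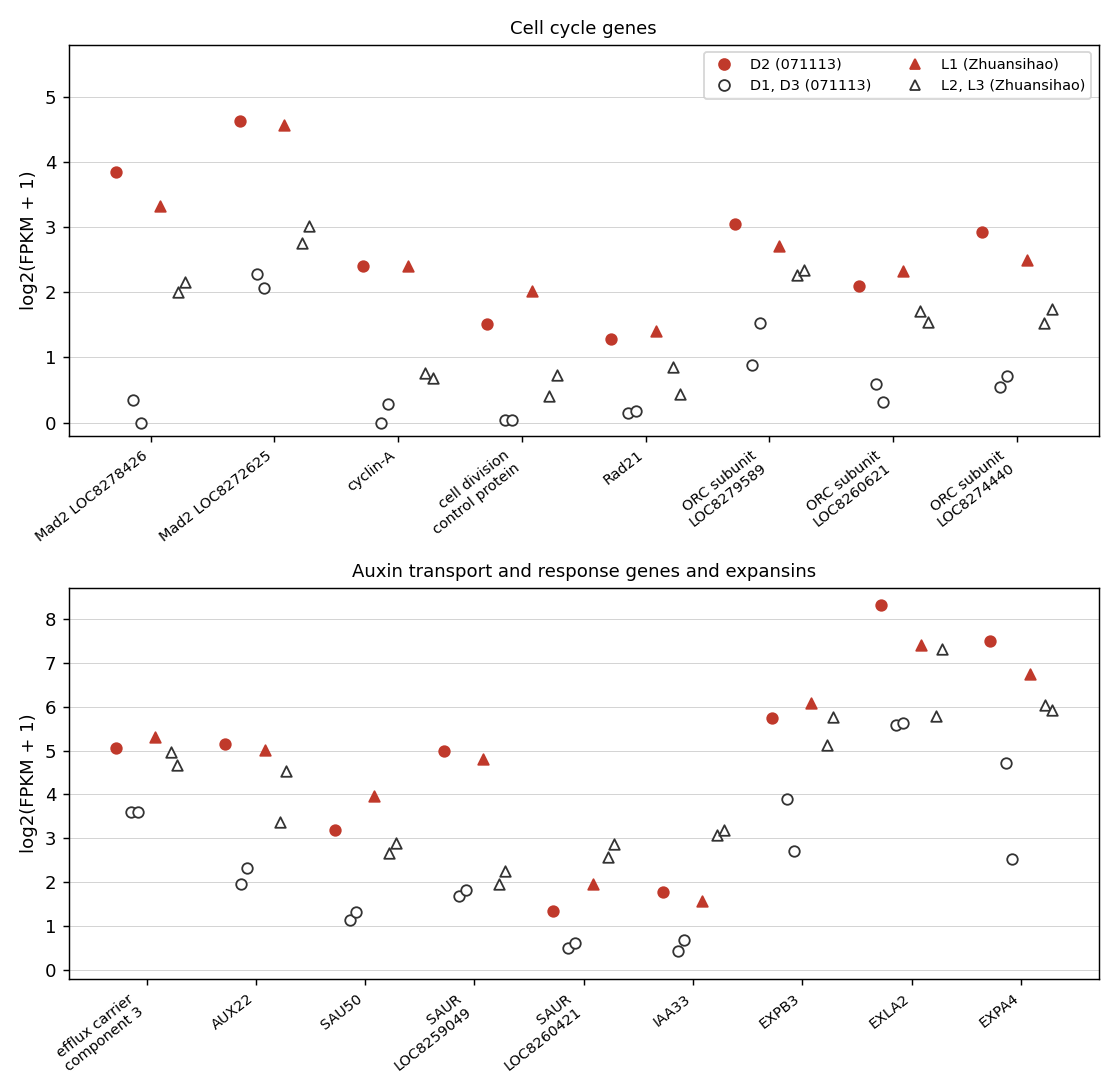
Values of the 8 cell cycle genes (top) and of 9 auxin and expansin genes (bottom) in every library on the log2(FPKM + 1) scale, with circles for 071113, triangles for Zhuansihao and filled red symbols for D2 and L1. D2 and L1 lie above the other libraries of their variety in all 8 cell cycle genes, and in IAA33 and SAUR LOC8260421 the red triangle lies below the open ones.

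Genes of wall stiffening and pectin turnover were lower in D2 than in D1 and D3, while L1 was close to L2 and L3; the difference between the varieties was not tested. The transcription factor NAC (LOC8265938) had 20.0 FPKM in D2 against 139 in D1 and 130 in D3, but 15.1 in L1 against 13.2 in L2 and 16.0 in L3. D2 was thus far below its own variety, and L1 lay among the other high-stalk libraries. PME45 (LOC8288420), a pectinesterase that removes methyl groups from pectin, had 4.69 FPKM in D2 against 70.3 in D1 and 42.1 in D3, and 7.26 in L1 against 6.45 in L2 and 8.87 in L3. PGLR (LOC107262217), a polygalacturonase that cuts pectin chains, had 3.10 FPKM in D2 against 51.6 in D1 and 31.3 in D3, and its L1 value of 5.45 was a little under L2 at 7.24 and L3 at 5.65.

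The lignin genes were likewise lower in D2, but in L1, L2 and L3 they were near the floor. Phenylalanine ammonia-lyase (PAL) opens the phenylpropanoid pathway, and peroxidases couple lignin monomers in the wall. The peroxidase PER (LOC8258115) had 0.546 FPKM in D2 against 9.53 in D1 and 5.66 in D3, while L1 at 0.631 lay between L2 at 0.584 and L3 at 1.26. Peroxidase LOC8289058 and PAL LOC8272514 and LOC8272515 had D2 differences of -1.73, -0.98 and -1.01, and L1 differences of 0.27, 0.06 and -0.06. Peroxidase LOC8271940 was under the filter. Of the 7 NAC, pectin and lignin genes past the filter, 0 were low in D2 and L1 by the rule, beside 1.44% of all genes. The 4 lignin genes among them could not meet it. Their L2 and L3 values, at most 1.26 FPKM, left no room for L1 to be lower by 1.

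The largest difference of a named low gene was that of CysEP (LOC8278243), a castor papain-type cysteine endopeptidase known from tissues that undergo programmed cell death. It had 1.56 FPKM in D2 against 13.7 in D1 and 50.8 in D3, and 0.925 in L1 against 7.84 in L2 and 69.5 in L3. The 4 other libraries ranged widely, and D2 and L1 were below each of them (mean difference -3.56, SE 1.24). VPE (LOC8272115), a vacuolar processing enzyme, was also lowest in D2 and L1, but by less (147 FPKM in D2 against 207 in D1 and 215 in D3, and 168 in L1 against 206 in L2 and 235 in L3). It was singled out after its values were seen.

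SUT1 (LOC8262746), the carrier that loads sucrose into the phloem, was low in D2 and L1. It had 73.6 FPKM in D2 against 344 in D1 and 296 in D3, and 153 in L1 against 406 in L2 and 245 in L3 (mean difference -1.57, SE 0.41). Without L2 the mean difference was -1.49 and the L1 difference fell short of the rule. Among the 7 genes of sugar and carbon transport and metabolism, all past the filter, SUT1 was the 1 low gene and 0 were high. Over all genes 1.44% were low and 4.9% high. The median difference of the 7 genes was -0.15. STC (LOC8275367), a sugar carrier, was higher instead, with 94.4 FPKM in D2 against 24.1 in D1 and 35.5 in D3, and 67.1 in L1 against 55.6 in L2 and 48.6 in L3. Phosphoenolpyruvate carboxylase PPC4 (LOC8269491) had 170 FPKM in D2 against 301 in D1 and 242 in D3, and 149 in L1 against 232 in L2 and 258 in L3 (mean difference -0.69, SE 0.12). PPC1 (LOC8285021) differed in D2 (-0.76) and hardly in L1 (-0.03).

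NIA (LOC8274143), nitrate reductase, sat just outside the rule and was singled out after its values were seen. It had 82.5 FPKM in D2 against 184 in D1 and 149 in D3, and 100.3 in L1 against 255 in L2 and 160.1 in L3. Its differences were nearly the same, -0.996 in D2 and -1.002 in L1, and D2 and L1 were the lowest libraries.

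The listed genes of acyl lipid synthesis were near the background. The list was matched by symbol and is partial. For instance, it leaves out LPAAT5, FATA1 and FATB1, which did not meet the rule. Of 19 listed genes 16 passed the filter, of which 1 was high (6.25%, beside 4.9% of all genes) and 0 were low (beside 1.44%). Both differences were positive in 10 and negative in 4, and the median difference was 0.26. FAD7 (LOC8265360), a plastid desaturase that makes trienoic fatty acids, had 41.0 FPKM in D2 against 8.01 in D1 and 7.19 in D3, and 21.9 in L1 against 5.48 in L2 and 7.97 in L3 (mean difference 1.94, SE 0.27). The 4 other libraries were thus close to one another in both varieties. KAS1 (LOC8264135), which elongates fatty acids in the plastid, had 64.6 FPKM in D2 against 20.7 in D1 and 19.2 in D3, and 55.9 in L1 against 33.96 in L2 and 31.0 in L3.

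FAD2 (LOC8267086), the oleate desaturase of the endoplasmic reticulum, had 473 FPKM in D2 against 252 in D1 and 243 in D3, and 344 in L1 against 201 in L2 and 159 in L3, with nearly equal differences of 0.93 in D2 and 0.94 in L1. SAD3 (LOC8277360), named as a stearoyl-ACP desaturase, had 19.8 FPKM in D2 against 0.281 in D1 and 0.119 in D3, but its L1 value of 6.16 lay between L2 at 0.667 and L3 at 7.58. FAH12, the hydroxylase that makes ricinoleic acid in the seed, stayed under 1 FPKM in every library.

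RcCAS (LOC8262543), cycloartenol synthase at the start of plant sterol synthesis, had 56.1 FPKM in D2 against 10.7 in D1 and 12.9 in D3, and 45.0 in L1 against 20.8 in L2 and 25.0 in L3 (mean difference 1.56, SE 0.37). The L1 difference of 0.95 kept it just outside the rule. The CYP726A genes encode cytochrome P450 enzymes of diterpenoid synthesis. CYP726A13, CYP726A17 and CYP726A18 had D2 differences of -1.38, -2.02 and -2.60 and L1 differences of -0.82, -0.38 and -0.40. CYP726A16, the most abundant of the family here, stood on the other side, with 21.7 FPKM in D2 against 11.1 in D1 and 13.3 in D3, while L1 at 29.95 lay between L2 at 41.8 and L3 at 18.6. Of the 5 terpenoid genes past the filter, 0 were high and 0 were low, beside 4.9% and 1.44% of all genes. Aquaporin Tip1-1 (LOC8283972), a water channel of the vacuole membrane, had 1046 FPKM in D2 against 416 in D1 and 393 in D3, and 645 in L1 against 254 in L2 and 414 in L3. Pip2-1 had a smaller mean difference (0.60) and Pip1-1 one of -0.25.

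TAL3 and TAL5, named by RefSeq synonyms alone and given no role here, stood in opposite directions. TAL3 (LOC8262908) had 13.8 FPKM in D2 against 3.25 in D1 and 2.04 in D3, and 5.29 in L1 against 1.83 in L2 and 2.29 in L3. TAL5 (LOC8278856) had 1.31 FPKM in D2 against 2.16 in D1 and 6.19 in D3, and 0.569 in L1 against 1.37 in L2 and 5.77 in L3. Without L2, TAL3 did not meet the rule (mean difference 1.57), and TAL5 did not meet it without D3 (-0.97) or L3 (-0.85).

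**Figure D3:**
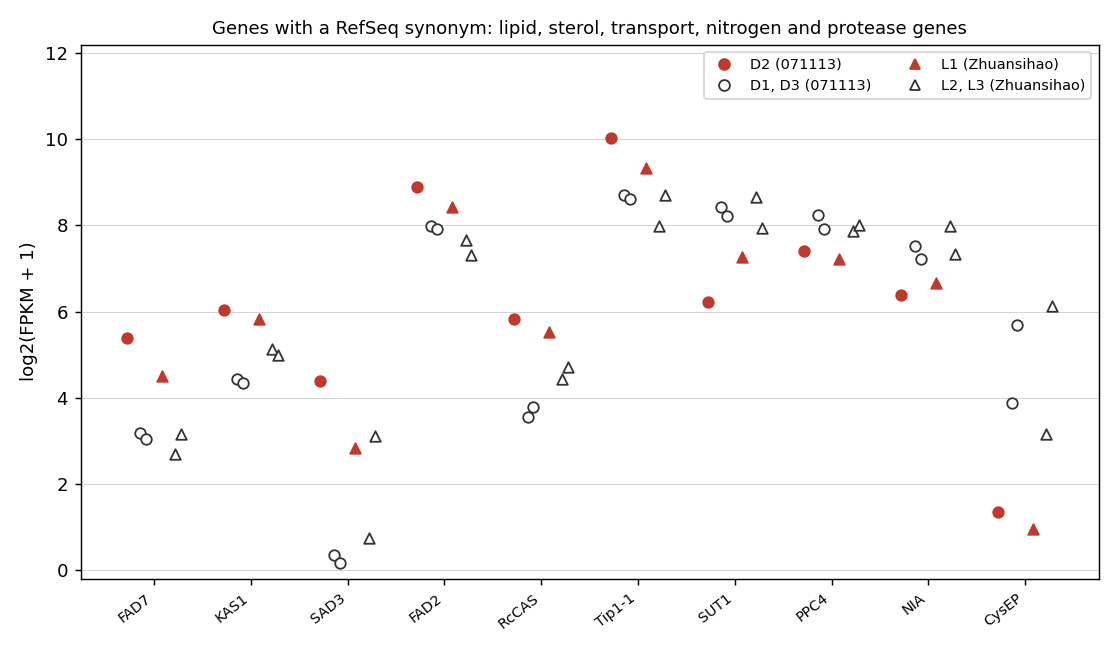
Values of 10 genes named by RefSeq synonyms in every library on the log2(FPKM + 1) scale, with circles for 071113, triangles for Zhuansihao and filled red symbols for D2 and L1. D2 and L1 lie above the open symbols of their variety for FAD7, KAS1, FAD2, RcCAS and Tip1-1 and below them for SUT1, PPC4, NIA and CysEP, while for SAD3 L1 lies between L2 and L3.

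The genes with the largest differences of all have no name in the sources used here. LOC8269110 had 67.1 FPKM in D2 against 0.892 in D1 and 0.289 in D3, and 110 in L1 against 0.0897 in L2 and 0.166 in L3 (mean difference 6.03, SE 0.39). It passed the filter only through D2 and L1. LOC8277056 was listed at 0 in D2 and in L1, against 20.6 FPKM in D1, 19.0 in D3, 21.2 in L2 and 20.5 in L3. The 4 other libraries were almost equal across both varieties, and this was the 1 gene in the table that was under 0.1 FPKM in D2 and L1 and at least 2 FPKM in the other 4.

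Some of the strongest differences came from neighbouring genes. With the genes past the filter put in the order of the RefSeq assembly (15934 genes placed), 16.8% of the 776 placed high genes had another high gene next to them, against 9.42% of all placed genes. For the 228 placed low genes the share was 10.5%, against 2.82%. The longest low run had 8 genes, one of them LOC8279895, with 0.116 FPKM in D2 against 23.6 in D1 and 49.4 in D3, and 11.3 in L1 against 104 in L2 and 343 in L3. The 8 genes ranged from 0.116 to 2.93 FPKM in D2, against 6.68 to 47.1 in D1 and 12.9 to 88.8 in D3. In L1 they ranged from 1.21 to 30.6 FPKM, against 21.2 to 277 in L2 and 33.2 to 551 in L3. D2 and L1 were the lowest library of their variety in all 8.

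The longest high run had 4 genes, one of them LOC8280474, with 282 FPKM in D2 against 1.93 in D1 and 1.61 in D3, and 60.9 in L1 against 0.659 in L2 and 4.77 in L3. The 4 genes reached 63.9 to 907 FPKM in D2 and 8.42 to 191 in L1, with at most 32.2 FPKM in any other library. Neighbouring copies of a gene can share reads, which these values cannot resolve, and the counting method is not given in the sources used here. By chromosome, the share of high genes lay between 4.00% and 6.44% and that of low genes between 0.989% and 2.27%.

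The contrast between the varieties was read in each library set. D2 over L1 is the dwarf over high-stalk difference inside the first set, and D1 and D3 over L2 and L3 is the same difference inside the second. D2 and L1 differed less, with an SD across genes of 0.50 against 0.76. Each is 1 library, while the other side averages 2. D2 and L1 were put together for their high correlation, so the smaller SD and the smaller counts below follow at least in part from that choice. D2 was above L1 by at least 1 in 576 genes (3.55%) and below it in 315 (1.94%). D1 and D3 were above L2 and L3 in 1004 genes (6.18%) and below them in 1272 (7.83%). At a limit of 2, the counts were 64 (0.394%) and 36 (0.222%) for D2 over L1, and 236 (1.45%) and 295 (1.82%) for D1 and D3 over L2 and L3. The 2 variety differences share no library, and across genes they correlated at a Pearson r of 0.09 and a Spearman rho of 0.01.

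The chaperones kept a variety difference in both sets. HSP7C (LOC8265956), a constitutive member of the HSP70 family, had 570.1 FPKM in D2 against 122 in L1, a difference of 2.21, and 944 in D1 and 857 in D3 against 109 in L2 and 215 in L3, a difference of 2.55. CLPB1 (LOC8284441), which takes apart aggregated proteins, had 51.8 FPKM in D2 against 5.53 in L1 (3.02), and 384 in D1 and 387 in D3 against 6.10 in L2 and 7.24 in L3 (5.66). In the wall genes the variety difference of D2 over L1 was small or on the other side. The study picked these genes and the chaperones with D2 left out, which favours a large difference of D1 and D3 over L2 and L3. The variety difference of NAC was 0.39 in D2 over L1 and 3.12 in D1 and D3 over L2 and L3, that of PME45 was -0.54 and 2.69, and that of PGLR was -0.66 and 2.48.

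The variety difference had opposite signs in the sets for 5 of the 8 cell cycle genes, 5 of the 9 auxin genes and 2 of the 3 expansins past the filter, some of them by values near 0. The same held for 11 of the 16 acyl lipid genes and 3 of the 7 sugar and carbon genes. The share of all genes with opposite signs was not counted, so these counts are not read as a trait of the lists. EXPA4 had a variety difference of 0.77 in D2 over L1 and -2.35 in D1 and D3 over L2 and L3. For Mad2 LOC8278426 the values were 0.52 and -1.91. HP4 (LOC8285833), a phosphotransfer protein of cytokinin signalling, had 41.2 FPKM in D2 and 41.8 in L1 (-0.02), and 69.3 in D1 and 66.6 in D3 against 49.4 in L2 and 50.9 in L3 (0.43). Actin (LOC8269707), the reference gene of the study, had 55.4 FPKM in D2 and 60.3 in L1 (-0.12) and differed by 0.01 in the second set.

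**Figure D4:**
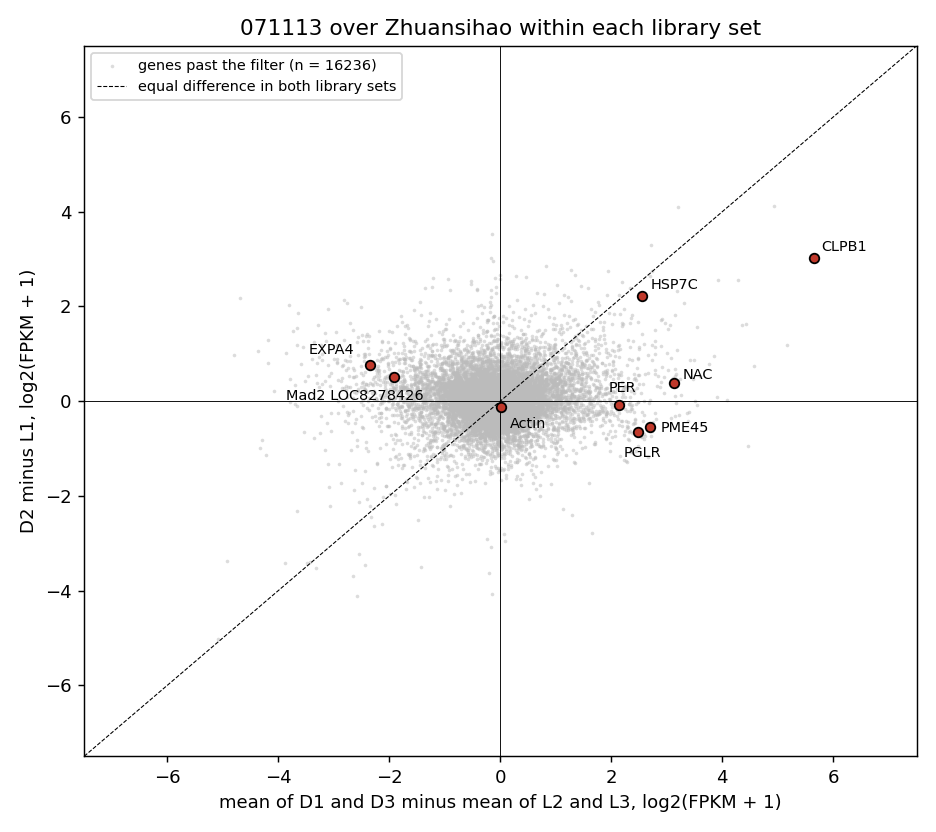
Each point is a gene past the filter, with the 071113 over Zhuansihao difference of D1 and D3 over L2 and L3 on the x axis and that of D2 over L1 on the y axis, both on the log2(FPKM + 1) scale, and the dashed line marks equality. HSP7C lies near the line, CLPB1 is positive on both axes, and NAC, PME45, PGLR, PER, EXPA4 and Mad2 LOC8278426 are far from 0 on the x axis and within 1 of 0 on the y axis.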

How the data were processed

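Poly(A) mRNA of 6 internode libraries was sequenced on the Illumina HiSeq platform. The authors filtered the reads and deposited FPKM values per gene and library, with replicates not pooled. For the aligner, the counter and the genome build: not given in the sources used here. Groups follow the genotype labels, with 3 libraries per variety. Which plants made which library is not given, so the spread may be partly technical.

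The 2 library sets, the gene lists and the genes named were chosen with earlier results of these data known. Values were analysed as log2(FPKM + 1) for genes with at least 1 FPKM in at least 2 libraries. The added pseudocount of 1 shrinks the log2 differences of genes with low values. No test was run, because the sets were chosen from the same values; SE values describe the spread of the libraries around the fit. Depth is unknown beyond the relative depth from ratios of values under 0.5 FPKM, so no counting interval is given.

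Names came from the paper (33 of 34 IDs found) and from RefSeq assembly ASM1957865v1, which matched 18432 rows and gave synonyms or symbols for 67 genes. It was used for names and gene order. The 15 names with several rows (109 rows) were left out of named genes and gene order. Lists matched by gene description found no members; the secondary wall list caught only LACS4, an acyl-CoA synthetase, and is not used. Named genes were all genes of the paper, up to 15 named high and 15 named low genes, up to 4 genes per list, 2 high and 2 low IDs without a name, and up to 5 named genes per direction that stood opposite in D2 and L1; others are marked as chosen later. No sequences were at hand.

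Alternatives were pseudocounts of 0.1 and 0.5, no filter, a mean of at least 5 FPKM, median-ratio scaling, quantile normalization, a limit of 2 in place of 1, and each library left out in turn. The calculation of the differences was checked on simulated data. Calculations used numpy 2.4.6 and pandas 2.3.3 in Python 3.11.15, with plots by matplotlib 3.10.9.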

Additional observations from a re-analysis of the deposited data

Results flagged for a closer look

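In 5 named genes D2 lay on one side of D1 and D3 while L1 lay on the opposite side of L2 and L3. The difference between the varieties was not tested. IAA33 (LOC8289729) had a D2 difference of 1.22 and an L1 difference of -1.55 on the log2 scale, and SAUR LOC8260421 had 0.78 and -0.75. The auxin response factor LOC8259066 had -0.12 in D2 and 0.46 in L1. DGAT1 (LOC8272569), an acyltransferase of the last step of oil synthesis, had -0.38 in D2 and 0.19 in L1. Actin (LOC8269707) had -0.071 in D2 and 0.056 in L1.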

How the results depend on the processing

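The number of genes high in D2 and L1 was 505 with a mean of at least 5 FPKM and 145 with a limit of 2, against 795. The number of low genes was 350 with a pseudocount of 0.1 and 26 with a limit of 2, against 233. With each library left out in turn the count of high genes lay between 719 and 2689 and that of low genes between 219 and 1527; the highest values are those without L1, where D2 alone decides, and without D2, where L1 alone decides, there were 903 high and 513 low genes. The correlation of the D2 and the L1 within-variety differences lay between 0.523 (without L2) and 0.657. Quantile normalization gave 649 high and 312 low genes, 644 and 231 of them shared with those above, and put the median difference of all genes at -0.07, against 0.03 as deposited. Of the 16 genes counted as high or low that are named here, 9 met the rule under every setting of pseudocount, filter and scaling and with each library left out in turn. TAL3 and SUT1 did not meet it with quantile normalization, and TAL3, TAL5, cyclin-A, LOC8283237 and Mad2 LOC8278426 were dropped by the mean of 5 FPKM. No named gene counted as high or low changed direction under these alternatives. Only scaling or quantile normalization could have reversed one, since the rule sets D2 and L1 beyond both other libraries of their variety. Smaller pseudocounts, no filter, and leaving out D2 or L1 could not undo a call. No paired analysis was possible because the results come from no test and no label says that a shared number joins a D library to an L library. FPKM without read counts limits what can be said of genes near 0.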
